A study of Mus musculus with 7 samples.

Results

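The miR-183 cluster, which also holds miR-96 and miR-182, is a group of 3 miRNA hairpins on mouse chromosome 6, each of which can give a 5p and a 3p mature strand. Its 6 mature miRNAs were taken by name, both arms of each hairpin, out of 1966 mature miRNAs in the count tables. All 6 were found, and the 3 members of the 5p arm passed the filter on low counts that left 450 miRNAs for testing. The libraries were small RNA libraries of mouse hepatocytes, isolated by digesting the perfused liver with collagenase and pelleting the heavy cells at low speed. WT gave 3 libraries and ALAS12-KO gave 4, and every library carries the treatment label TMX, which the labels do not spell out. The design text of the series speaks of hepatocytes mutant in ALAS1 and ALAS2, the enzymes that start heme synthesis, and the study asked how ALAS bears on small RNAs. The labels give no strain, age, Cre driver or promoter, and do not say whether replicates came from separate animals, so the spread between libraries may be partly technical.

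The hairpins of such a cluster are cut from a long primary transcript by Drosha and DGCR8, then by Dicer, and 1 strand of each duplex is kept by Argonaute. The strand kept pairs with target mRNAs mainly through its seed, bases 2 to 8. The cluster is best known from sensory organs, where it is abundant in photoreceptors and hair cells and where seed mutations of miR-96 cause hearing loss. In liver it is described as a target of the sterol regulator SREBP2 that feeds back through Fbxw7 and Insig2, and miR-96 and miR-182 are known to repress Foxo1, a transcription factor of gluconeogenesis.

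The mature sequences show how closely the seeds of the 3 5p strands resemble each other, and that the seeds of the 3p strands differ. The sequences are RefSeq's, on GRCm38.p6, all on the minus strand of chromosome 6, printed 5′ to 3′ with the seed in capitals.
mmu-miR-183-5p (chr6:30169711-30169732): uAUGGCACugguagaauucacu
mmu-miR-96-5p (chr6:30169506-30169528): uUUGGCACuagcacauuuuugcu
mmu-miR-182-5p (chr6:30165962-30165986): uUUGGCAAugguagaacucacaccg
mmu-miR-183-3p (chr6:30169672-30169693): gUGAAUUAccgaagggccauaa
mmu-miR-96-3p (chr6:30169465-30169486): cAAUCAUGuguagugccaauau
mmu-miR-182-3p (chr6:30165923-30165943): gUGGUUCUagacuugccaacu

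Counted from the 5′ end, miR-96-5p and miR-182-5p have the same first 7 bases and part at C8A (miR-96-5p first), so 6 of their 7 seed bases match. miR-183-5p differs from miR-96-5p in the seed by A2U alone. Outside the seed miR-183-5p and miR-182-5p are the closest pair, matching at 13 of the 15 bases compared, while miR-96-5p matches miR-183-5p at 7 of 15 and miR-182-5p at 6 of 16. Over the whole strand, seed included, the matches are 18 of 22, 13 of 22 and 12 of 23. Among the 1679 mature names with a RefSeq sequence, mmu-miR-1271-5p alone shares the full seed of miR-96-5p, and no other has that of miR-183-5p or miR-182-5p. miR-1271-5p had 0 reads in all 7 libraries. With 3 reads taken as the limit of a 0, counting error alone allows up to 0.137 to 0.389 CPM, the reads per 1000000 miRNA reads. miR-1271-5p was looked at after its values were seen.

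RefSeq places Mir183 at chr6:30169668-30169737, Mir96 at chr6:30169446-30169551 and Mir182 at chr6:30165918-30165992. Mir183 and Mir96 are 116 bases apart, and Mir182 lies 3453 bases beyond Mir96. All 3 lie within the RefSeq span of the long noncoding RNA gene Mirc35hg (chr6:30158640-30174125). GENCODE M21, on the same genome, has no other gene over any of the hairpins and places the noncoding Rncr4 nearby on the opposite strand (chr6:30172893-30175126).

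The total of miRNA reads ran from 7719180 to 21962191 per library. miR-122-5p, the main miRNA of hepatocytes, took 53.5% to 61.5% of them. Tables of mature miRNAs hold no reads for Alas1 or Alas2, and the knockout itself could not be checked here.

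The 3 5p strands were present at moderate levels in every library, and 3 of the 4 ALAS12-KO libraries held more of each than any WT library. mmu-miR-182-5p, the most abundant member, ranked 120 of the 450 tested miRNAs by mean CPM. It stood at 46.1, 51.8 and 50.4 CPM in WT replicates 1 to 3. In ALAS12-KO replicates 1 to 4 it stood at 85.0, 68.3, 39.6 and 81.5 CPM. Replicates 1, 2 and 4 were above every WT library, and replicate 3 was the lowest of all 7, so the groups overlapped.

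mmu-miR-96-5p, the member known from inherited deafness, ranked 143. It stood at 33.3, 36.8 and 26.6 CPM in WT and at 52.4, 41.2, 39.1 and 64.6 CPM in ALAS12-KO. On this scale all 4 ALAS12-KO libraries were above all 3 WT libraries, though replicate 3 was again the lowest of its group.

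mmu-miR-183-5p ranked 196. It stood at 11.7, 14.2 and 10.1 CPM in WT and at 20.6, 17.7, 10.1 and 19.4 CPM in ALAS12-KO. Replicate 3 of ALAS12-KO was level with the lowest WT library, and the other 3 were above all of WT. The shallowest value, 78 reads in WT replicate 3, has an exact 95% binomial interval of 7.99 to 12.6 CPM, which covers counting error only.

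**Figure D1:**
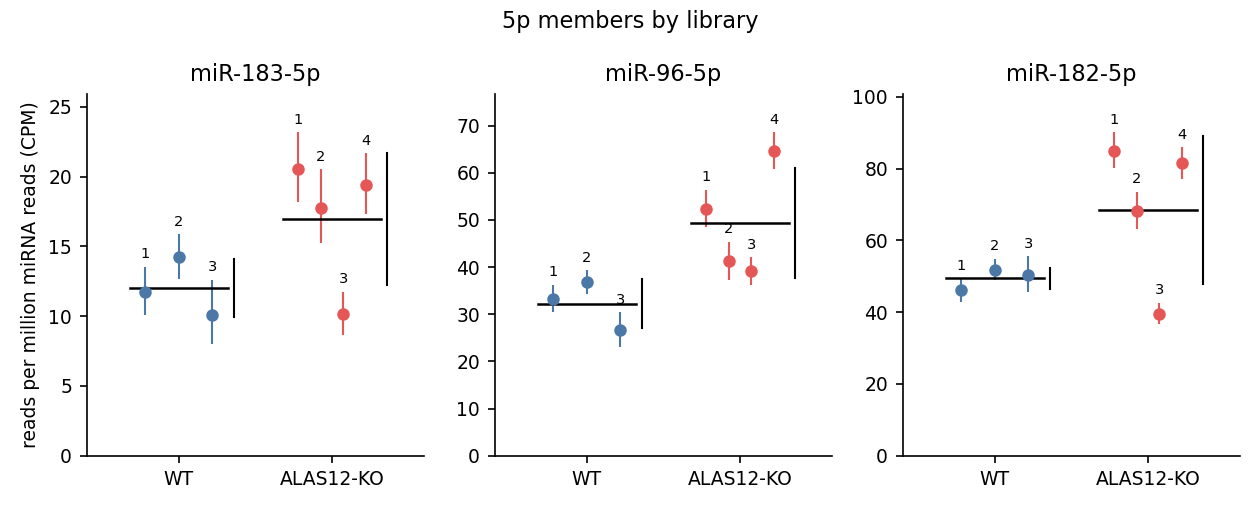
Each point is 1 library, in CPM (vertical axis), by genotype (horizontal axis), for the 3 5p members. Thin bars are exact 95% binomial intervals of counting error, digits are replicate numbers, horizontal lines are group means and black vertical lines 1 SD. ALAS12-KO replicate 3 sits at or below WT for miR-182-5p (39.6 CPM) and miR-183-5p (10.1 CPM), and the other 3 ALAS12-KO libraries sit above WT in every panel.

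None of the members passed the test between genotypes. With edgeR's quasi-likelihood test and TMM factors, which rescale each library to the bulk of its miRNAs, miR-96-5p had a log2 fold change of 0.80 ± 0.26 (SE; 1.74-fold) and an adjusted p of 0.22. miR-183-5p had 0.70 ± 0.34 and miR-182-5p 0.69 ± 0.33, both with an edgeR adjusted p of 0.283. The same test called 0 of 450 miRNAs, or 0%, at an adjusted p under 0.05. At an unadjusted p under 0.05 there were 46 higher in ALAS12-KO (10.2%) and 38 lower (8.44%), and 1 of the 3 tested members, miR-96-5p, was among the higher. DESeq2 called 21 of 450 miRNAs (4.67%) and limma-voom 0, and edgeR called 2 of 450 with library totals (0.444%) and 13 of 1302 with no filter (0.998%). No member was called in any of these fits, and the nearest was miR-96-5p in DESeq2 (DESeq2 adjusted p = 0.0688).

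The WT mean of miR-182-5p was 49.4 ± 2.97 CPM (SD, n = 3), against 68.6 ± 20.7 CPM (SD, n = 4) for ALAS12-KO. For miR-96-5p the means were 32.2 ± 5.20 (SD, n = 3) and 49.3 ± 11.7 (SD, n = 4), and for miR-183-5p 12.0 ± 2.07 (SD, n = 3) and 17.0 ± 4.70 (SD, n = 4). For each member the SD was larger in ALAS12-KO than in WT, most of all for miR-182-5p. The members ranked 26 (miR-96-5p), 41 (miR-183-5p) and 43 (miR-182-5p) of 450 from the top by log2 fold change.

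The size of these differences moved with the scaling. Scaled by library totals alone, the log2 fold changes were 0.61 ± 0.23 for miR-96-5p, 0.49 ± 0.28 for miR-183-5p and 0.47 ± 0.27 for miR-182-5p. Library totals also moved the median of all 450 from 0.06 to −0.12, so relative to that median each member kept nearly the same distance. On plain CPM the genotypes did not overlap for miR-96-5p, a pattern that 24 of 450 miRNAs (5.33%) showed in that direction. On TMM-scaled CPM they did overlap, at 36.2 in WT replicate 2 and 35.3 in ALAS12-KO replicate 3, where 49 of 450 (10.9%) did not.

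The size of the differences also depended on which ALAS12-KO library was left out. Without ALAS12-KO replicate 3 the log2 fold changes were 0.85 for miR-182-5p, 0.86 for miR-183-5p and 0.88 for miR-96-5p, with edgeR adjusted p of 0.112, 0.142 and 0.118. Without ALAS12-KO replicate 1, the library with the highest TMM-scaled level of all 3, they were 0.45, 0.48 and 0.66. Markers of other cells moved with these libraries. By summed reads within ALAS12-KO, replicate 3 held the most endothelial, leukocyte and mesenchymal markers and the least of the hepatocyte list. Replicate 1 held the opposite. The hepatocyte sum is mostly miR-122-5p, and its members split, with 4 of 8 tested lower in replicate 1 than in replicate 3. Their part in the result was not tested. In bulk RNA, fewer cells of a type and less RNA per cell cannot be told apart.

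The makeup of the cluster was compared next, since the shares of its members do not depend on how a library is scaled. By reads the order was miR-182-5p, miR-96-5p, miR-183-5p in every library. Reads of different miRNAs are not molecules, as ligation to linkers favours some sequences, so this is an order of reads. Of the reads of the 3 5p members, miR-182-5p made up 53.0% ± 4.27 of WT (SD, n = 3) against 50.3% ± 4.39 of ALAS12-KO (SD, n = 4). miR-96-5p made up 34.3% ± 3.29 (SD, n = 3) and 37.2% ± 5.46 (SD, n = 4), and miR-183-5p 12.8% ± 1.11 (SD, n = 3) and 12.5% ± 1.17 (SD, n = 4). These shares differed between the genotypes by less than the spread within them.

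Libraries of 1 genotype differed in makeup by more than counting error, mainly in miR-96-5p against miR-182-5p. For every 100 reads of miR-182-5p there were 72.3, 71.0 and 52.7 reads of miR-96-5p in WT replicates 1 to 3. In ALAS12-KO replicates 1 to 4 there were 61.6, 60.4, 98.8 and 79.3. The exact 95% interval of ALAS12-KO replicate 3, from 88.7 to 110, lies above those of the other 6 libraries, and in this library alone the 2 miRNAs could not be put in order. The interval of WT replicate 3, from 44.3 to 62.6, lies below those of the other WT libraries. Reads of miR-183-5p per 100 of miR-182-5p ran from 23.8 to 26.0 in ALAS12-KO and were 25.4, 27.4 and 20.1 in WT replicates 1 to 3. The lowest value, in WT replicate 3, rests on 78 reads of miR-183-5p, and no interval was taken for this ratio.

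**Figure D2:**
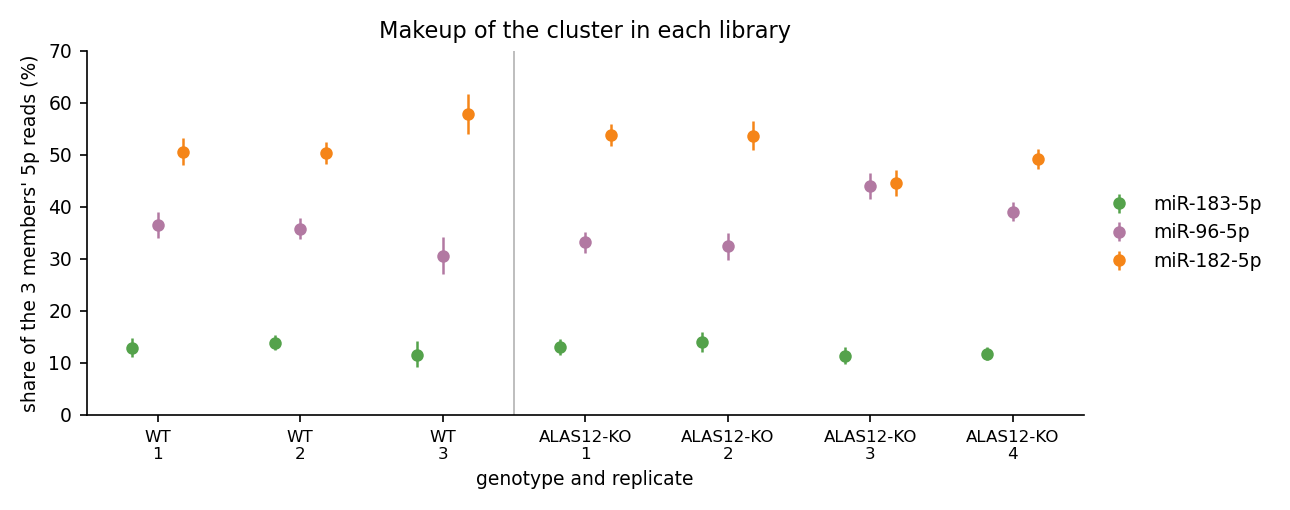
Share of the reads of the 3 5p members (vertical axis, percent) taken by each member in each library (horizontal axis), with exact 95% binomial intervals. miR-183-5p stays between 11.4% and 13.9% throughout, while miR-96-5p and miR-182-5p meet at 44.0% and 44.6% in ALAS12-KO replicate 3.

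The log2 ratios of the members gave the same picture between genotypes. The ratio of miR-96-5p to miR-182-5p averaged −0.63 ± 0.26 over WT (SD, n = 3) and −0.44 ± 0.34 over ALAS12-KO (SD, n = 4), a difference of 0.18 with an exact permutation p of 0.543. For miR-183-5p to miR-182-5p the difference was 0.04 (exact permutation p = 0.83), and for miR-183-5p to miR-96-5p it was −0.14 (exact permutation p = 0.514). These tests were two-sided, and 3 against 4 libraries cannot give a p below 0.0286. With 9 ratios tested, Benjamini-Hochberg adjusted p were 0.611, 0.83 and 0.611.

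The 3p strands were almost absent. Over all libraries the 5p members had 6086 (miR-182), 4379 (miR-96) and 1519 (miR-183) reads. The 3p members had 8, 1 and 13. The hairpins show both strands in place, in capitals, as RefSeq gives them.
Mir183: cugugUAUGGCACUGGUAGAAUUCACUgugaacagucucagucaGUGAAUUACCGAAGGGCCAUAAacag
Mir96: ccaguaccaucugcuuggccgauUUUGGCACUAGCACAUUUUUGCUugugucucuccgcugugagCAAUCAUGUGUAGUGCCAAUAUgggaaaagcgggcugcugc
Mir182: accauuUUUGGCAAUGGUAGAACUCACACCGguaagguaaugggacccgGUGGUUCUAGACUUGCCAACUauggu

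mmu-miR-183-3p had 2, 3 and 0 reads in WT and 4, 1, 1 and 2 in ALAS12-KO. mmu-miR-182-3p had 2, 4 and 0 reads in WT and 2, 0, 0 and 0 in ALAS12-KO. mmu-miR-96-3p had 1 read in all, in ALAS12-KO replicate 4. None of the 3 reached the filter for testing.

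As a share of both arms summed over all libraries, the 3p strand made up 0.849% of miR-183 (exact 95% interval 0.453 to 1.45), 0.131% of miR-182 (0.0567 to 0.259) and 0.0228% of miR-96 (5.78e-04 to 0.127). Among 146 hairpins with at least 1000 reads, the minor arm took a median of 1.88%, with 55 at or below the share of miR-183, 24 at or below that of miR-182 and 8 at or below that of miR-96. miR-96 was therefore among the most one-sided hairpins of these libraries. A difference between genotypes was not detectable at this depth, and the design limits the test as well. With 3 against 4 libraries an exact permutation p cannot fall below 0.0286, so 1 share alone could not pass after adjustment over 3. With 1 read of its 3p strand in all, the test of miR-96 could decide nothing. The mean share of 3p reads was 0.668% in WT and 0.802% in ALAS12-KO for miR-183 (exact permutation p = 0.714). For miR-182 it was 0.207% and 0.0446% (exact permutation p = 0.257), and for miR-96 0% and 0.0236% (exact permutation p = 1). The exact 95% interval of a 0 in WT replicate 3 reached up to 4.62% for miR-183 and 0.944% for miR-182.

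Each member was then set against miR-122-5p, the miRNA that marks hepatocytes, and against miR-200a-3p, which cholangiocytes and other epithelia express. Against miR-122-5p the log2 ratio was higher in ALAS12-KO by 0.60 for miR-96-5p, with the groups apart (exact permutation p = 0.0571). It was higher by 0.46 for miR-183-5p (exact permutation p = 0.143) and by 0.42 for miR-182-5p (exact permutation p = 0.20), where ALAS12-KO replicate 3 stood within or below WT. Benjamini-Hochberg adjusted p over the 9 ratios were 0.129, 0.257 and 0.30. ALAS12-KO replicate 3 was thus low in miR-182-5p per read of miR-122-5p too, at a log2 ratio of −13.72 against −13.60 to −13.46 in WT.

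Against miR-200a-3p the members stood apart in all 7 libraries. miR-200a-3p itself stood at 75.9, 95.03 and 143 CPM in WT and at 23.6, 45.1, 47.4 and 33.6 CPM in ALAS12-KO. The log2 ratio of miR-96-5p to it averaged −1.66 ± 0.67 over WT (SD, n = 3) and 0.42 ± 0.73 over ALAS12-KO (SD, n = 4), a 4.23-fold difference (exact permutation p = 0.0286, the smallest possible; adjusted 0.129). The ratios of miR-183-5p and miR-182-5p differed 3.84-fold and 3.72-fold, each with an exact permutation p of 0.0571 and an adjusted p of 0.129. So 0 of the 9 ratios passed after adjustment, and 1 had an unadjusted p under 0.05. With 0.0286 as the smallest possible p, 1 ratio alone could not pass after adjustment over 9, so the count of 0 decides nothing. miR-200a-3p was put into these ratios with its lower level in ALAS12-KO already known, which makes them a description of how far the members part from miR-200a-3p.

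**Figure D3:**
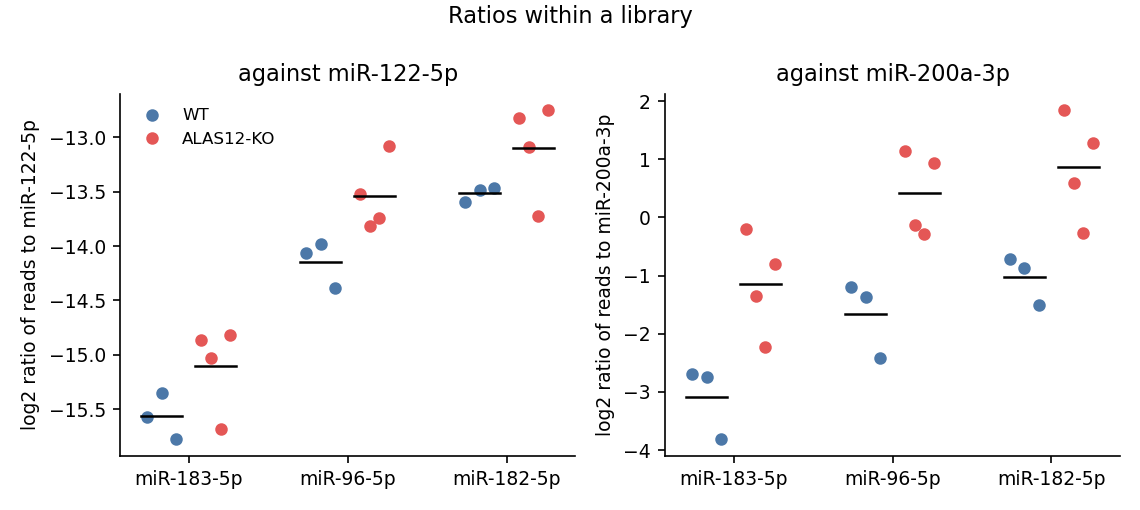
Log2 ratio of reads within a library (vertical axes) for the 3 5p members (horizontal axes) against miR-122-5p (left) and miR-200a-3p (right), 1 point per library with group means as lines. Against miR-200a-3p every ALAS12-KO point is above every WT point of the same member, while against miR-122-5p this holds for miR-96-5p alone.

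The profile of the cluster over the 7 libraries was compared with those of the other 447 tested miRNAs. The measure was the root mean square difference between log2(TMM-scaled CPM + 1) values, each centred on its own mean, so a smaller value is a closer match. The closest to the summed cluster were miR-21a-3p (0.222), miR-378a-5p (0.254), miR-203-3p (0.262), miR-137-3p (0.262) and miR-192-5p (0.267), against a median of 0.581 over those 447. Each of these 5 was highest in ALAS12-KO replicate 1, and each was lower in ALAS12-KO replicate 3 than in the other 3 ALAS12-KO libraries. They were picked for their match to the cluster, so this follows partly from the choice. The TMM factors, 0.806 in replicate 1 and 1.11 in replicate 3, also raise every miRNA in replicate 1 relative to replicate 3. On plain CPM the summed cluster was highest in ALAS12-KO replicate 4, at 166 against 158 in replicate 1. Their own log2 fold changes were 0.54 ± 0.22 for miR-21a-3p, the minor strand of an injury-linked miRNA, 0.38 ± 0.21 for miR-378a-5p, 0.63 ± 0.17 for miR-203-3p, known from skin and other epithelia, 0.28 ± 0.19 for miR-137-3p, known from neurons, and 0.39 ± 0.18 for miR-192-5p, abundant in liver and gut. Their edgeR adjusted p ran from 0.156 to 0.416.

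Among the members, miR-183-5p and miR-182-5p were the closest pair, at 0.125, and 0 other tested miRNAs were closer to either. miR-183-5p and miR-96-5p, whose hairpins are the nearest on the chromosome, were at 0.22, and miR-96-5p and miR-182-5p at 0.268. 6 other tested miRNAs were closer to miR-96-5p than miR-182-5p was.

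**Figure D4:**
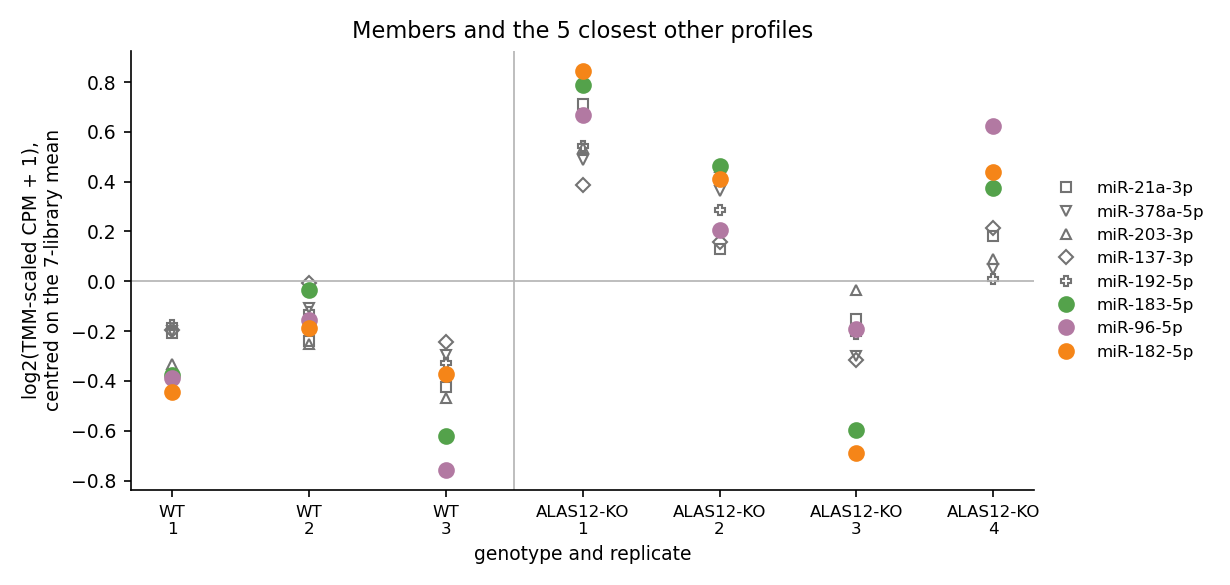
Log2(TMM-scaled CPM + 1) of each miRNA, centred on its mean over the 7 libraries (vertical axis), in each library (horizontal axis). Coloured points are the members and grey symbols the 5 other miRNAs with the closest profiles. The members are high in ALAS12-KO replicates 1, 2 and 4 and below their mean in WT and in ALAS12-KO replicate 3, where miR-183-5p and miR-182-5p lie below every grey symbol.

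Other miRNAs with roles near those of the cluster were read from 3 lists. Of 13 tested miRNAs tied to sterol and lipid handling in liver, edgeR called 0 and DESeq2, which called 4.67% of all 450, called 2. These were miR-34a-5p (DESeq2 adjusted p = 1.21e-04) and miR-144-3p (DESeq2 adjusted p = 0.029). At unadjusted p under 0.05, 2 were higher, miR-30c-5p and miR-34a-5p, and 1 was lower, miR-144-3p. Their median log2 fold change was 0.29, with 10 positive with TMM and 7 with library totals, where all tested miRNAs had a median of 0.06. Of all 450, 56% were positive with TMM and 38.9% with library totals. miR-34a-5p, a target of p53 named after its values were seen, had 1.10 ± 0.19 (edgeR adjusted p = 0.103, 0.044 with library totals and 1.45e-07 with no filter), and miR-144-3p, a miRNA of red cell precursors, had −0.97 ± 0.29. miR-30c-5p, a repressor of lipoprotein assembly, had 0.50 ± 0.17, miR-148a-3p, known to repress the LDL receptor, 0.29 ± 0.16, miR-122-5p 0.20 ± 0.16 and miR-27b-3p 0.09 ± 0.14. The values of miR-122-5p and miR-27b-3p changed sign with library totals. The miR-33 strands sit in an intron of Srebf2, the gene of SREBP2, and were named after their values were seen. miR-33-5p had 0.40 ± 0.24, with WT at 52.7 ± 0.518 CPM (SD, n = 3) and ALAS12-KO at 60.0 ± 8.92 (SD, n = 4), and miR-33-3p had 0.31 ± 0.31.

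Of 8 tested miRNAs outside the cluster that are known to target Foxo1, 7 had a negative log2 fold change with TMM and 8 with library totals, where 44.0% and 61.1% of all 450 were negative. The median was −0.45, 0 passed at an unadjusted p under 0.05 in edgeR, and DESeq2 called 0. All 8 were lower in ALAS12-KO replicate 1 than in replicate 3, as were all the endothelial, mesenchymal and leukocyte markers. So were 6 of 7 epithelial, 4 of 8 hepatocyte and 2 of 4 red cell markers. The share of all 450 tested miRNAs that were lower in replicate 1 than in replicate 3 was not taken. miR-27a-3p stood at 218 and 601 CPM in these 2 libraries and miR-139-5p at 27.6 and 78.3. miR-223-3p is also in the leukocyte list. The part of other cells in these values was not tested. miR-27a-3p had −0.55 ± 0.25, miR-223-3p −0.41 ± 0.25 and miR-139-5p −0.37 ± 0.26. Of 11 neural, sensory and neuroendocrine miRNAs, tissues where the cluster is abundant, 6 could be tested, with a median of −0.49 and 1 lower at an unadjusted p under 0.05. That was miR-129-5p, at −0.80 ± 0.29 and only 1.58 CPM. miR-335-5p had −0.43 ± 0.33, and miR-7a-5p (0.09 ± 0.16) and miR-128-3p (0.04 ± 0.21) were near 0 with a sign that changed with library totals. The summed level of this list was 0.168% to 0.192% of miRNA reads in WT and 0.158% to 0.168% in ALAS12-KO.

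Markers of the cell types that a hepatocyte pellet can hold were read the same way, and edgeR called 0 of them. Cholangiocyte and other epithelial markers are the list nearest to the cluster in known expression. Of the 7 tested, 6 were negative and 1 was positive, both with TMM and with library totals. Of all 450 tested miRNAs, 44% were negative with TMM and 61.1% with library totals. miR-203-3p (0.63 ± 0.17) was higher at an unadjusted p under 0.05, and miR-200a-3p (−1.31 ± 0.27), miR-200b-3p (−1.30 ± 0.29) and miR-429-3p, named after its values were seen, (−1.27 ± 0.27) were lower. DESeq2 called these 4, as did edgeR with no filter, with DESeq2 adjusted p from 0.00193 (miR-200a-3p) to 0.0235 (miR-203-3p). Of all miRNAs tested, DESeq2 called 4.67% and edgeR with no filter 0.998%. miR-141-3p had −0.10 ± 0.18. The 7 markers summed to 0.163% to 0.166% of reads in WT and 0.197% to 0.218% in ALAS12-KO, most of it miR-203-3p, so the sum did not follow the miR-200 members.

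Hepatocyte markers (8 of 9 tested, 8 positive with TMM and 7 with library totals) took 63.4% to 66.2% of reads in WT and 60.7% to 69.4% in ALAS12-KO. Of all 450 tested miRNAs, 56% were positive and 44% negative with TMM, and 38.9% were positive with library totals. Endothelial markers took 3.56% to 5.25% in WT and 1.10% to 3.65% in ALAS12-KO. Both were negative, miR-126a-3p at −0.61 ± 0.27 and miR-126a-5p at −0.51 ± 0.29. Mesenchymal markers (6 of 7 negative, miR-143-3p at −0.46 ± 0.30) took 0.417% to 0.698% and 0.157% to 0.574%. Leukocyte markers (7 of 8 negative, miR-146a-5p at −0.52 ± 0.29) took 0.820% to 1.10% and 0.301% to 1.01%. Of these, miR-150-5p, a lymphocyte miRNA named after its values were seen (−1.04 ± 0.36), was called by edgeR with no filter (adjusted p = 0.0153). Red cell markers (4 of 4 negative, miR-451a at −0.34 ± 0.31) took 0.00205% to 0.00272% and 9.11e-04% to 0.00203%. DESeq2, which called 4.67% of all 450, called miR-144-3p alone among them. No marker of these lists was at 0 in every library. The part of these markers in the members' values was not tested.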

How the data were processed

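For each of the 7 libraries the authors deposited 1 table of whole-number read counts by mature miRNA name, with no normalisation, judging by the values. The submitters' processing notes name Cutadapt, limma, mm10 and hg38 without saying what each was for. The sources used here do not give the aligner, counter, miRNA annotation or handling of reads that match several miRNAs. The 5 summary entries that name no miRNA were set aside. Of all reads, 50.9% to 73.7% fell outside miRNAs and 4.54% to 8.00% did not align. 1 CPM stood for 7.72 to 22.0 reads. Reads are not unique molecules, so intervals cover counting error only.

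CPM are reads per 1000000 miRNA reads of a library. The genotypes were compared with edgeR 4.0.16 in R 4.3.3 (quasi-likelihood, robust, TMM factors, filterByExpr at a minimum count of 10) over 450 miRNAs. Adjusted p are Benjamini-Hochberg values, called under 0.05. The fit was tested on simulated data. Ratios had 0.5 added to each count. Ratios and arm shares were compared by two-sided exact permutation over 35 assignments. The alternatives were DESeq2 1.42.0, limma-voom (limma 3.58.1), other scalings and filters, summed counts, another pseudocount for ratios, each library left out in turn, and a block on the replicate number. The rule for naming took all members, miR-122-5p, tested miRNAs that share a member's seed, the 5 closest profiles and, from each list, at most 4 tested miRNAs taken by abundance. Members and lists were chosen with earlier results of these data known. Sequences are RefSeq's (GRCm38.p6), matched for 6 of 6 members and 395 of 450 tested miRNAs, and gene spans are RefSeq's and GENCODE M21's, read with Python 3.11.15.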

Additional observations from a re-analysis of the deposited data

How the results depend on the processing

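All 3 members kept a positive log2 fold change and an adjusted p above 0.05 under all 15 alternatives. Leaving out 1 library, miR-96-5p ran from 0.63 to 0.95, miR-183-5p from 0.48 to 0.89 and miR-182-5p from 0.45 to 0.85. Over the other settings they ran from 0.61 to 0.77, 0.49 to 0.67 and 0.47 to 0.66. With the replicate number as a block they were 0.68, 0.60 and 0.54. Deviations of same-numbered libraries had correlations of −0.0172, −0.484 and 0.0313, and those of differently numbered pairs ran from −0.351 to 0.555. With so few libraries these values cannot tell whether the number marks a pairing. The block called 0 miRNAs.

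The count of called miRNAs, 0, became 2 with library totals, 13 with no filter, 21 with DESeq2 and 0 to 1 without 1 library. The count at an unadjusted p under 0.05, 84, became 138 with no filter, 49 with a mean CPM of at least 10, and 49 and 45 without WT replicates 1 and 2. Of the 84 found with TMM, 54.8% were higher in ALAS12-KO. With library totals the count was 77, and 27.3% of those were higher. The cause was not tested.

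The difference in the ratio of miR-183-5p to miR-182-5p ran from −0.0859 (without WT replicate 3) to 0.14 without 1 library. The difference in the 3p share of miR-183, 0.134 percentage points, became −0.0146 from summed counts and ran from −0.20 (without WT replicate 3; −0.0832 without ALAS12-KO replicate 1) to 0.326. That of miR-96 was 0 to 0.0315, and 0 without ALAS12-KO replicate 4, which holds its only read. The other ratios and the 3p share of miR-182 kept their sign.

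Of 564 alternative values of 38 other named miRNAs, 17 changed sign and 13 kept it with an adjusted p under 0.05. With library totals miR-122-5p was −0.0046, miR-128-3p −0.16, miR-27b-3p −0.11 and miR-7a-5p −0.10. With upper-quartile factors miR-128-3p was −0.0482 and miR-7a-5p −8.67e-04. With a mean CPM of at least 10 miR-128-3p was −0.10, miR-27b-3p −0.0609 and miR-7a-5p −0.0549, and with no filter miR-128-3p was −0.0165. Without 1 library, miR-128-3p ran from −0.0945 to 0.0943 (negative without WT replicate 3, ALAS12-KO replicate 1 or ALAS12-KO replicate 2), miR-7a-5p from −0.0299 to 0.147 (negative without WT replicate 3 or ALAS12-KO replicate 1), miR-27b-3p from −0.0131 (without ALAS12-KO replicate 2) to 0.0887 and miR-142a-3p from −0.382 to 0.0262 (without ALAS12-KO replicate 1).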

Other observations

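How steady the ratio of 2 neighbouring hairpins is from library to library was looked at after the data were seen. Each hairpin was represented by its more abundant tested strand, with a mean of at least 10 CPM and a single locus, and pairs lay within 10 kb on 1 strand. Over the 38 such pairs, the SD of the log2 ratio across the 7 libraries had a median of 0.198 and ran from 0.0585 for miR-379-5p with miR-411-5p to 0.501 for miR-191-5p with miR-425-5p. miR-182-5p with miR-183-5p ranked 9 from the steadiest, at 0.143. miR-183-5p with miR-96-5p ranked 27 (0.254) and miR-182-5p with miR-96-5p ranked 33 (0.296). The pairs share hairpins and differ in depth, so these ranks are a description.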
